A study of Homo sapiens with 4 samples.

Results

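A group of 39 genes of the response to low oxygen and of glucose breakdown was examined in motile and immotile cells of the HCT116 line, a line of human colorectal carcinoma cells. The group was chosen by 2 of its members: ANKRD37 was among the genes with the largest falls in the motile cells with either treatment, and GAPDH was slightly lower there. The other members were added as 25 targets of the hypoxia-inducible factors (HIF), ANKRD37 among them, and 14 glycolytic enzymes, GAPDH among them. Because measured values of these arrays prompted the choice, the ratios between motile and immotile cells are given as a description.

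MG cells were HCT116 cells that had crossed a transwell membrane toward serum, and non-MG cells were those that had stayed behind. The selection was repeated 5 times, and each type was then cultured on its own, so that each is 1 enriched population. Both were kept for 48 h with vehicle or with 5 µM 5-azacytidine, a cytidine analog that inhibits DNA methyltransferases. RNA of the 4 conditions (non-MG with vehicle, non-MG with 5-azacytidine, MG with vehicle, MG with 5-azacytidine) was hybridized to 4 Agilent arrays, 1 per condition. With 1 array per condition there were no replicates, no test was made and no p-value is given. The error printed after ± is the spot error of the log2 ratio: the SD between repeated spots at the brightness of each array, divided by the square root of the number of spots and combined over the arrays of the ratio and the probes of the gene. It covers neither culture nor RNA preparation. Levels are processed spot intensities as the scanner software gave them, and each log2 ratio was taken after subtracting the 75th percentile of each array. That percentile was an intensity of 87.0 for non-MG cells with vehicle, 75.2 for non-MG cells with 5-azacytidine, 98.7 for MG cells with vehicle and 96.4 for MG cells with 5-azacytidine, so raw intensities and log2 ratios differ slightly.

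Hypoxia-inducible factors are transcription factors made of an oxygen-regulated alpha subunit and the constant subunit ARNT. When oxygen is present, prolyl hydroxylases of the EGLN family mark the alpha subunit for the VHL ubiquitin ligase, and it is degraded. When oxygen is scarce, the alpha subunit persists, pairs with ARNT and binds a short core motif at genes for glucose uptake, glycolysis, acid export, blood vessel growth and mitophagy. Colorectal tumors and their cell lines use glycolysis heavily, and many glycolytic genes have a constitutive level on which HIF adds. Oxygen, HIF protein and metabolic flux were not among the measurements used here.

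The single-colour arrays detected 21384 to 21882 of 50594 probes well above background, and no spot was saturated. After the filter on dim probes 18919 genes were measured. Of the 39 members, 38 had a retained probe (25 HIF targets and 13 glycolytic enzymes). ALDOA had no probe matched by accession and is not analysed here. Every retained probe of 37 members was well above background on all 4 arrays, and CA9 was the exception. The label of the cells fitted its epithelial markers: EPCAM, KRT8, KRT18, KRT19 and CDH1 were well above background on all 4 arrays. Of 4 markers of blood, vessel and stromal cells, PTPRC, PECAM1 and COL1A2 had no retained probe, while COL1A1 was detected on each array and was lower in MG cells, at a log2 ratio of -0.92 with vehicle and -0.55 with 5-azacytidine. All arrays lay on 1 slide, non-MG cells in row 1, MG cells in row 2, vehicle in column 3 and 5-azacytidine in column 4, so an effect of place on the slide and one of cell type or treatment cannot be told apart.

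The 250 bases before the RefSeq start site are shown for 6 members: ANKRD37, 2 glycolytic isozymes with large differences (ALDOC and ENO2), GAPDH, and 2 enzymes close to equal between cell types (PGAM1 and PKM). These 6 were picked by their ratios among members with a single RefSeq start site. They therefore do not show how often a motif goes with a difference. The stretches are written 5′ to 3′ on the strand of the gene, from RefSeq on GRCh38.p14. Capitals mark each match to ACGTG or GCGTG on either strand, the core that HIF is known to bind. On the strand of the gene a match to the opposite strand reads CACGT or CACGC, and a CACGTG holds a match on each strand, so these overlap.
ANKRD37, chr4:185396591-185396840, plus strand: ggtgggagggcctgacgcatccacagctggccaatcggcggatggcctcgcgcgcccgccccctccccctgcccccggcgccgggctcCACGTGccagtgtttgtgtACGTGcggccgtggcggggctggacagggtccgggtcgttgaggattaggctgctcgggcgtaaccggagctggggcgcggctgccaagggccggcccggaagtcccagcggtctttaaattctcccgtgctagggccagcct
ALDOC, chr17:28576896-28577145, minus strand: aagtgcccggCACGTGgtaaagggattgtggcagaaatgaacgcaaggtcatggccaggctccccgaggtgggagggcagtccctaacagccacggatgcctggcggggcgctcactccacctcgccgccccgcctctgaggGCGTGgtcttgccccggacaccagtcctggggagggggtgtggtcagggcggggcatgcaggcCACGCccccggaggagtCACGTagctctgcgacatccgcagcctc
ENO2, chr12:6914330-6914579, plus strand: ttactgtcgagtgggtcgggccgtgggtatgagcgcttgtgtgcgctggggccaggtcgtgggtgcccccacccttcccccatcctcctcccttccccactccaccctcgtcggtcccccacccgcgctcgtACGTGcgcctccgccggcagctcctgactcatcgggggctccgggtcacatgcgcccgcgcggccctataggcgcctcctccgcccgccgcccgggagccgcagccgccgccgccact
GAPDH, chr12:6535014-6535263, plus strand: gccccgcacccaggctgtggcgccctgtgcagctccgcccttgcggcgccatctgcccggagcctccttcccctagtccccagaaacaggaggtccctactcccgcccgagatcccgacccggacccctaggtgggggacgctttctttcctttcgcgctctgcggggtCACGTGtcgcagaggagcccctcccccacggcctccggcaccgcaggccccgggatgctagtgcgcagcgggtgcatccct
PGAM1, chr10:97427568-97427817, plus strand: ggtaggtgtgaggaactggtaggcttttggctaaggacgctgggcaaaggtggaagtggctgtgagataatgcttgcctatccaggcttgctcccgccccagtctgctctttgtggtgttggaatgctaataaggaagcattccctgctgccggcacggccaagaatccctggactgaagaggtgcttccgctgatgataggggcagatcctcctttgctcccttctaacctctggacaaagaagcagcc
PKM, chr15:72231191-72231440, minus strand: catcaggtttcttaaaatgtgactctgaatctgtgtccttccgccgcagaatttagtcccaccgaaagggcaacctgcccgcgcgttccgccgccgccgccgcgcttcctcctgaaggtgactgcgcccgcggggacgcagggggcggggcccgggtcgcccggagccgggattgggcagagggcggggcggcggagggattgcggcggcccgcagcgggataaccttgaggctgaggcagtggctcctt

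ANKRD37 had a CACGTG whose first letter lay 162 bases before the start and an ACGTG at 143 bases. ALDOC held a CACGTG at 240 bases, a GCGTG at 108, a CACGC at 45 and a CACGT at 28. ENO2 had 1 ACGTG at 118 bases, and GAPDH had 1 CACGTG at 81 bases. PGAM1 and PKM held neither motif in these 250 bases. A window was taken as the 250 bases before a RefSeq start site. By this measure 35 of the 39 members had 58 windows, and ACGTG occurred in 29 of them, against 18.5% of all 35116 windows. With GCGTG counted as well, 41 of the 58 held a match (70.7%) against 43.2% of all. Genes with a single window gave 15 of 23 members with ACGTG (65.2%) against 18.4% of 22114. The log2 ratio between cell types (MG over non-MG) in vehicle had a median of -1.07 (-2.54 to -0.31) in those 15 members and of -0.44 (-1.49 to -0.05) in the 8 without ACGTG. ANKRD37 and GAPDH, whose ratios prompted the choice of the members, are the ends of the first range, and CA9 within it is only bounded. Nothing is therefore read from the difference between the medians. The ranges of the 15 and the 8 overlapped widely: ADM and PFKFB4 had no ACGTG and log2 ratios of -1.49 and -1.17, while GAPDH had a CACGTG and -0.31. ADM and PFKFB4 did have 1 match each once GCGTG was counted. Of the members with a single window and neither motif, SLC2A1 was at -0.84, and EGLN3, P4HA2, PKM and PGAM1 lay between -0.56 and -0.05. The members were listed as HIF targets and glycolytic enzymes, so a larger share with a HIF motif was built into the list. Genes with several windows, such as HK1, also entered the 58 more than once. Nothing is read from these shares. A match of these letters is a description of the sequence and does not show binding.

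The members were lower in MG than in non-MG cells with vehicle almost throughout. Of 38 measured, 37 had a log2 ratio under 0, 25 were lower past 1.5-fold and 0 were higher past it. The median log2 ratio was -0.79, against -0.03 over all genes. Past 1.5-fold lower stood 12.6% of all genes measured, and higher 8.24%. Among the 14381 genes that were well above background on all 4 arrays and at least as bright as the dimmest such member, these shares were 7.82% and 5.74%. Because this comparison prompted the choice of the members, nothing is read from the excess. HIF targets made up 19 of the 25 and had a median of -0.90, and glycolytic enzymes made up 6 with a median of -0.50. Just inside the threshold was GPI at -0.63, and just outside it EGLN3 at -0.56.

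The same comparison with 5-azacytidine used the other 2 arrays. It prompted the choice of the members as well, so nothing is read from an excess here or with both treatments together. There 36 of 38 members had a log2 ratio under 0, 21 were lower past 1.5-fold and 0 were higher past it, and the median was -0.72 against -0.01 over all genes. The shares over all genes were 12.3% lower and 8.6% higher, and over the genes of matching brightness 6.85% and 5.79%. Of the 21, 18 were HIF targets and 3 glycolytic enzymes, with medians of -0.79 and -0.39. Lower past 1.5-fold with both treatments were 20 of 38 members (52.6%), against 5.78% of all genes and 3.7% of genes of matching brightness. These were 17 of 25 HIF targets (68.0%) and 3 of 13 glycolytic enzymes (23.1%). VEGFA, SLC2A1, HK1, GPI and PGK1 passed the threshold with vehicle alone, and EGLN3 with 5-azacytidine alone. In 36 of 38 members both MG arrays were below both non-MG arrays, which held for 31.0% of all genes and 30.3% of those of matching brightness. The exceptions were AK4, a mitochondrial adenylate kinase, and PGAM1, the phosphoglycerate mutase.

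**Figure D1:**
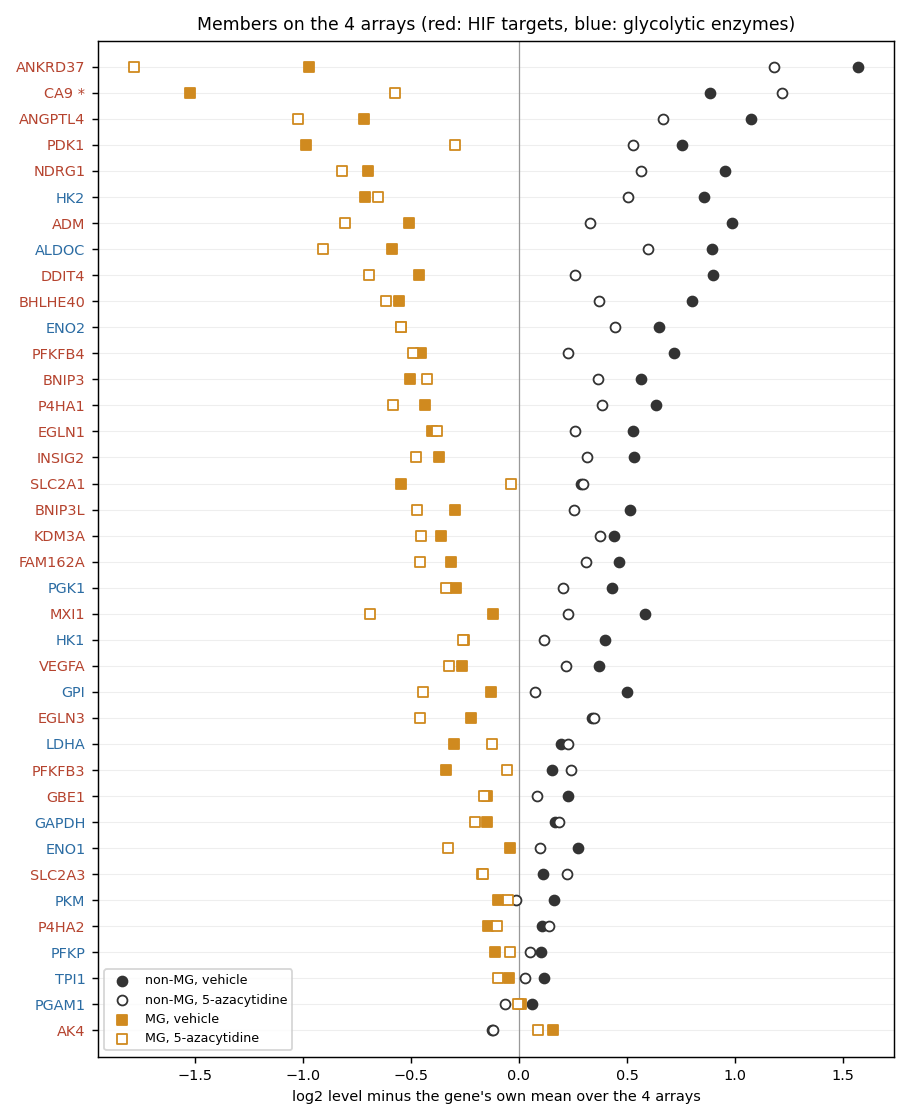
Log2 level of each of the 38 measured members on the 4 arrays, each minus the gene's own mean over the 4 arrays, with 1 point per array (circles, non-MG; squares, MG; filled, vehicle; open, 5-azacytidine). Genes are ordered by the ratio between the cell types in vehicle, and the squares lie left of the circles in all but AK4 and PGAM1; CA9 (star) was not well above background in MG cells.

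ANKRD37 encodes a small ankyrin repeat protein and is a known HIF target. Its probe read 5026 in non-MG cells with vehicle, 3312 in non-MG cells with 5-azacytidine, 981 in MG cells with vehicle and 547 in MG cells with 5-azacytidine. Both non-MG values thus lay far above both MG values, and in each cell type the array with 5-azacytidine was the lower. ANKRD37 was 5.81-fold lower in MG cells with vehicle (log2 ratio -2.54 ± 0.07) and 7.77-fold lower with 5-azacytidine (-2.96 ± 0.08). Among the 37 members well above background on all 4 arrays it had the lowest ratio in both comparisons.

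CA9, a carbonic anhydrase that takes part in pH control at the cell surface, was dim on every array. Its probe read 16.6 and 18.0 in non-MG cells with vehicle and 5-azacytidine, and 3.6 and 6.7 in MG cells. It was well above background in non-MG cells but not in MG cells, where only a bound can be given. CA9 was at least 1.64-fold lower in MG cells with vehicle and at least 1.96-fold lower with 5-azacytidine, taking the dimmest signal well above background as the limit in MG cells.

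The secreted factors ANGPTL4, ADM and VEGFA act on lipid metabolism, on vessel tone and on vessel growth, in this order. ANGPTL4 read 6455 and 4213 in non-MG cells with vehicle and 5-azacytidine, and 2120 and 1678 in MG cells. ADM, or adrenomedullin, read 12944 and 7098 in non-MG cells and 5212 and 4150 in MG cells. VEGFA, averaged over 2 probes, read 227 and 177 in non-MG cells and 166 and 156 in MG cells. The MG values were below the non-MG values for each of the 3 genes, with a wide gap for ANGPTL4 and a narrow one for VEGFA. ANGPTL4 was 3.45-fold lower in MG cells with vehicle (-1.79 ± 0.07) and 3.22-fold lower with 5-azacytidine (-1.69 ± 0.07). For ADM these values were 2.82-fold (-1.49 ± 0.02) and 2.19-fold (-1.13 ± 0.02). VEGFA was 1.55-fold lower with vehicle (-0.63 ± 0.08) and 1.46-fold lower with 5-azacytidine (-0.55 ± 0.09), so it was past the threshold with vehicle only.

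NDRG1 is a stress-response protein, and DDIT4 inhibits the growth kinase complex mTORC1. NDRG1 read 19065 and 12568 in non-MG cells with vehicle and 5-azacytidine, against 6872 and 6191 in MG cells. DDIT4 read 14830 and 8238 in non-MG cells, against 6545 and 5445 in MG cells. In both genes the groups were apart, and the highest array was non-MG cells with vehicle. NDRG1 was 3.15-fold lower in MG cells with vehicle (-1.65 ± 0.07) and 2.60-fold lower with 5-azacytidine (-1.38 ± 0.06), and DDIT4 was 2.57-fold (-1.36 ± 0.02) and 1.94-fold (-0.96 ± 0.02) lower.

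The mitochondrial members were lower in MG cells as well. PDK1, the kinase that switches off pyruvate dehydrogenase, read 456 and 337 in non-MG cells with vehicle and 5-azacytidine, and 155 and 244 in MG cells. It was 3.34-fold lower with vehicle (-1.74 ± 0.10) but 1.77-fold lower with 5-azacytidine (-0.82 ± 0.10). Of the other kinases of this family, PDK2 and PDK3 differed less, with log2 ratios of -0.18 and -0.01 for PDK2 and of -0.46 and -0.37 for PDK3. PDK4 differed less than PDK1 with vehicle but more with 5-azacytidine. PDK4 was 1 of the genes outside the group that passed 1.5-fold with both treatments, at -0.79 ± 0.18 and -0.98 ± 0.24, with intensities of 56.4 and 39.2 in non-MG cells and 36.9 and 25.5 in MG cells. FAM162A, a mitochondrial protein induced by hypoxia, read 7609 and 5916 in non-MG cells and 5050 and 4460 in MG cells. Its log2 ratio was -0.77 ± 0.06 with either treatment.

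BNIP3 and BNIP3L are receptors that tag mitochondria for mitophagy. BNIP3 read 6650 and 4997 in non-MG cells with vehicle and 5-azacytidine, and 3587 and 3706 in MG cells. BNIP3L, over 2 probes, read 810 and 586 in non-MG cells and 525 and 454 in MG cells. For each of them both MG arrays lay under both non-MG arrays. BNIP3 had a log2 ratio of -1.07 ± 0.07 with vehicle and -0.79 ± 0.07 with 5-azacytidine, and BNIP3L of -0.81 ± 0.06 and -0.73 ± 0.06.

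Among the oxygen-dependent enzymes, EGLN1 and EGLN3 hydroxylate HIF and are HIF targets themselves. EGLN1 read 1407 and 1008 in non-MG cells with vehicle and 5-azacytidine, and 837 and 831 in MG cells, with log2 ratios of -0.93 ± 0.08 and -0.64 ± 0.08. EGLN3 was dim, at 44.3 and 38.5 in non-MG cells and 34.0 and 28.2 in MG cells, with log2 ratios of -0.56 ± 0.18 and -0.81 ± 0.24. The spot error of EGLN3 was as large as its distance to the threshold. EGLN2, the family member that is not a HIF target and was not in the group, had log2 ratios of 0.37 ± 0.10 and 0.24 ± 0.10, which put EGLN1 1.31 ± 0.13 below it on the log2 scale with vehicle and 0.88 ± 0.13 with 5-azacytidine. Of the collagen prolyl hydroxylase subunits, P4HA1 read 1479 and 1073 in non-MG cells and 799 and 706 in MG cells, with log2 ratios of -1.07 ± 0.08 and -0.96 ± 0.08. P4HA2 differed less, with log2 ratios of -0.25 ± 0.07 and -0.24 ± 0.07.

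The regulators of transcription and chromatin were lower past 1.5-fold with both treatments in 3 of 3 genes. BHLHE40, a repressor of the circadian clock family, read 547 and 350 in non-MG cells with vehicle and 5-azacytidine, and 242 and 227 in MG cells, with log2 ratios of -1.36 ± 0.09 and -0.98 ± 0.10. KDM3A, a histone H3 lysine demethylase, read 86.0 and 71.1 in non-MG cells and 56.0 and 51.4 in MG cells, with log2 ratios of -0.80 ± 0.16 and -0.83 ± 0.16. MXI1, an antagonist of MYC, read 338 and 228 in non-MG cells and 236 and 155 in MG cells, averaged over 3 probes, so that MG cells with vehicle were barely above non-MG cells with 5-azacytidine before centring. After centring its log2 ratios were -0.70 ± 0.07 and -0.92 ± 0.10. The 3 probes of MXI1 gave -0.82, -0.19 and -1.11 with vehicle, the widest spread among probes of a member, and the probe at -0.19 was the dimmest, at an intensity of 35.7 in non-MG cells.

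INSIG2, a brake on sterol synthesis, read 378 and 281 in non-MG cells with vehicle and 5-azacytidine, and 229 and 208 in MG cells, with log2 ratios of -0.90 ± 0.07 and -0.79 ± 0.07. Its 2 probes gave -0.67 and -1.13 with vehicle. GBE1, the glycogen branching enzyme, and AK4 were within 1.5-fold. GBE1 had log2 ratios of -0.38 and -0.25, and AK4, the only member above 0 with vehicle, had 0.28 ± 0.06 and 0.21 ± 0.06. The 3 probes of AK4 were all above 0 with both treatments, although centring on the reference genes put AK4 under 0 with 5-azacytidine. The signs of GBE1 and P4HA2 with 5-azacytidine turned with median centring.

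**Figure D2:**
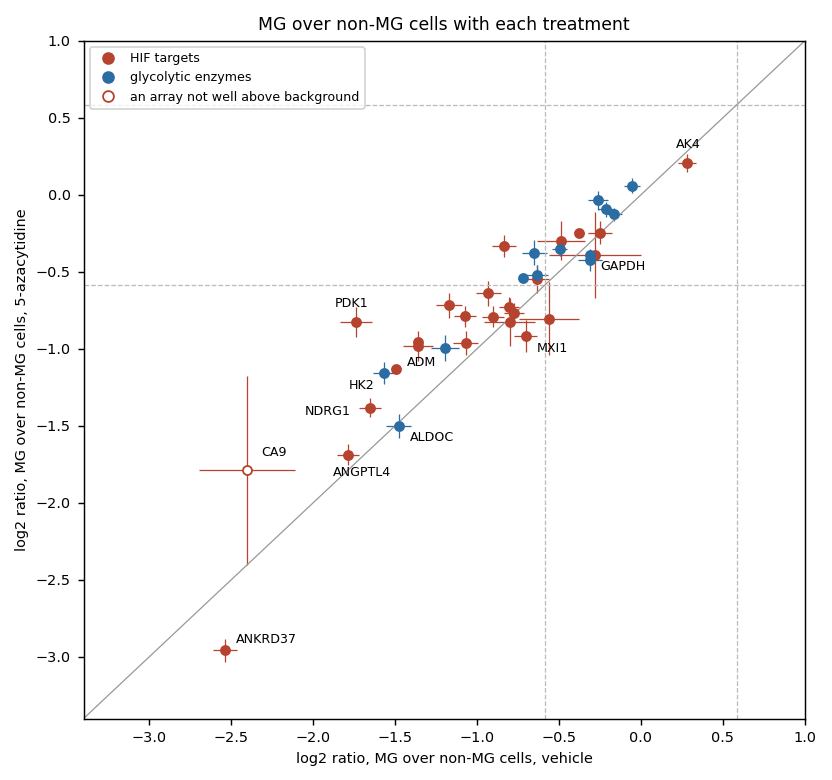
MG/non-MG log2 ratios in vehicle (x axis) and in 5-azacytidine (y axis) for the 38 members, with bars for the spot error; dashed lines mark 1.5-fold and the solid line equal ratios. Of the 38 points, 29 lie above the line of equal ratios; ANKRD37 is the lowest filled point on both axes, and the hollow point is CA9, not well above background in MG cells, whose ratio is only bounded.

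Glucose enters the cell through the transporters SLC2A1 and SLC2A3. SLC2A1 read 2609 and 2261 in non-MG cells with vehicle and 5-azacytidine, and 1658 and 2306 in MG cells. The lowest array was MG cells with vehicle, and the arrays with 5-azacytidine were close to each other in intensity. The log2 ratio was -0.84 ± 0.07 with vehicle and -0.33 ± 0.07 with 5-azacytidine. SLC2A3 was dim, and its ratios of -0.28 ± 0.28 and -0.39 ± 0.28 were of the size of the spot error or not much above it.

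Hexokinases commit glucose to the cell by phosphorylation. HK2, the isozyme that hypoxia induces, read 3078 and 2088 in non-MG cells with vehicle and 5-azacytidine, and 1180 and 1202 in MG cells. HK1, the constitutive isozyme, read 1273 and 907 in non-MG cells and 919 and 896 in MG cells. HK2 was 2.96-fold lower in MG cells with vehicle (-1.56 ± 0.07) and 2.23-fold lower with 5-azacytidine (-1.16 ± 0.07), and HK1 1.57-fold (-0.65 ± 0.08) and 1.30-fold (-0.38 ± 0.08). HK2 therefore lay 0.91 ± 0.11 below HK1 on the log2 scale with vehicle and 0.78 ± 0.11 below it with 5-azacytidine.

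GPI, the isomerase that follows, read 21084 and 13549 in non-MG cells with vehicle and 5-azacytidine, and 15428 and 12138 in MG cells. Its log2 ratio was -0.63 ± 0.07 with vehicle and -0.52 ± 0.06 with 5-azacytidine, on either side of the threshold. PFKP, the platelet-type phosphofructokinase, was close to equal at -0.21 ± 0.05 and -0.09 ± 0.05. The other phosphofructokinases, which are not in the group, were at -0.48 ± 0.09 and -0.40 ± 0.09 for PFKL and at -0.30 ± 0.07 and -0.10 ± 0.07 for PFKM, also within 1.5-fold.

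Phosphofructokinase is activated by fructose 2,6-bisphosphate, which PFKFB3 and PFKFB4 make. PFKFB4 read 1125 and 691 in non-MG cells with vehicle and 5-azacytidine, and 567 and 540 in MG cells, with log2 ratios of -1.17 ± 0.08 and -0.72 ± 0.08. PFKFB3 had -0.49 ± 0.15 and -0.30 ± 0.13 over 2 probes. These probes differed in sign with 5-azacytidine, at -0.63 for the dimmer and 0.04 for the brighter. PFKFB4 lay 0.68 ± 0.17 below PFKFB3 on the log2 scale with vehicle and 0.42 ± 0.15 below it with 5-azacytidine.

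ALDOC, the aldolase isozyme of brain, read 1891 and 1331 in non-MG cells with vehicle and 5-azacytidine, and 770 and 603 in MG cells. It was 2.78-fold lower in MG cells with vehicle (-1.48 ± 0.08) and 2.83-fold lower with 5-azacytidine (± 0.08 on the log2 scale), the lowest ratio of a glycolytic enzyme with 5-azacytidine. Its sequence above holds 5 matches to the core motif, and a link between these and the ratio was not tested. TPI1, the triose phosphate isomerase that follows aldolase, was at -0.16 ± 0.05 and -0.13 ± 0.04.

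GAPDH, the dehydrogenase at the center of the pathway and a common reference in qPCR, was spotted 10 times on each array. It read 38071 and 33374 in non-MG cells with vehicle and 5-azacytidine, and 34750 and 32619 in MG cells. Raw intensities thus differed little, and the ratio depended on the centring of the arrays. After the 75th percentile was subtracted, GAPDH was 1.24-fold lower in MG cells with vehicle (-0.31 ± 0.03) and 1.31-fold lower with 5-azacytidine (-0.39 ± 0.03). The median of 15 other reference genes was -0.05 and 0.03 in these comparisons, and it placed GAPDH 0.27 and 0.42 below them on the log2 scale. With vehicle, 1 of the 15 (POLR2A, -0.50) was lower than GAPDH, and with 5-azacytidine 0 were. TUBB, a tubulin gene, was the only 1 of the 15 past 1.5-fold, higher in MG cells at 0.70 ± 0.04 with vehicle and 0.62 ± 0.04 with 5-azacytidine. Centring each array on its median gave GAPDH -0.12 and -0.14, and the other scalings tried gave -0.25 to -0.51 and -0.21 to -0.74. GAPDH was thus below 0 under every scaling tried, within 1.5-fold under all but the centring on the level of the reference genes with 5-azacytidine. The methods of the study used GAPDH mRNA as the internal control of its qPCR.

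PGK1, the phosphoglycerate kinase that yields ATP, read 23325 and 17230 in non-MG cells with vehicle and 5-azacytidine, and 16041 and 15194 in MG cells. Its log2 ratio was -0.72 ± 0.02 with vehicle and -0.54 ± 0.02 with 5-azacytidine. PGAM1 was closest to equal of all members with vehicle, at -0.05 ± 0.05, and at 0.06 ± 0.05 with 5-azacytidine. Its promoter stretch held neither motif, and whether this bears on the ratio was not tested.

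Enolases make phosphoenolpyruvate. ENO2, the neuronal isozyme, read 937 and 703 in non-MG cells with vehicle and 5-azacytidine, and 465 and 453 in MG cells, whereas ENO1, the common isozyme, read 23123 and 17701 in non-MG cells and 21121 and 16901 in MG cells. ENO2 was 2.29-fold lower with vehicle (-1.19 ± 0.09) and 1.99-fold lower with 5-azacytidine (-0.99 ± 0.09), and ENO1 was at -0.31 ± 0.07 and -0.43 ± 0.07. The isozymes differed by 0.88 ± 0.11 on the log2 scale with vehicle and by 0.57 ± 0.11 with 5-azacytidine.

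At the end of the pathway, pyruvate kinase PKM was at -0.26 ± 0.06 with vehicle and -0.04 ± 0.06 with 5-azacytidine. Lactate dehydrogenase A (LDHA), which turns pyruvate into lactate, was at -0.50 ± 0.05 and -0.35 ± 0.05, both probes below 0. LDHB, the other subunit, which is not a member, was at 0.25 ± 0.05 and 0.50 ± 0.05. LDHA therefore lay 0.75 ± 0.07 below LDHB on the log2 scale with vehicle and 0.84 ± 0.07 with 5-azacytidine. HK2, ALDOC and ENO2 were lower past 1.5-fold with both treatments. The remaining 10 enzymes were within 1.5-fold with at least 1 treatment, and among them the signs of TPI1, PGAM1, PFKP and PKM turned under median centring or another scaling with at least 1 treatment.

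**Figure D3:**
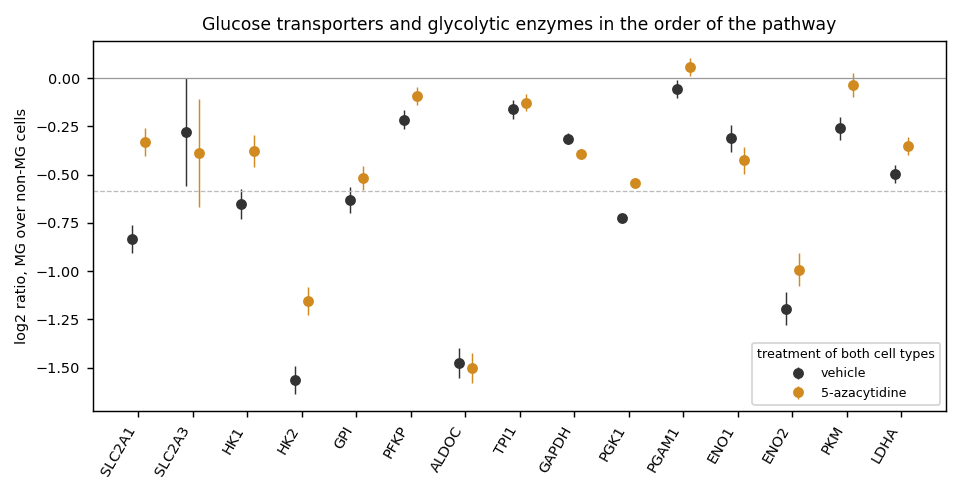
MG/non-MG log2 ratios for the 2 glucose transporters and 13 glycolytic enzymes in the order of the pathway, with vehicle (black) and 5-azacytidine (orange); bars are the spot error and the dashed line marks 1.5-fold lower. HK2, ALDOC and ENO2 are under the line with both treatments, while PGAM1 is near 0.

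In 29 of 38 members the MG/non-MG ratio was higher with 5-azacytidine than with vehicle, against 52.8% of all genes and 53.8% of those of matching brightness. This count depended on the scaling: with centring on the reference genes it was 16 of 38, against 30.7% of all genes. Across the 38 members the ratios with vehicle and with 5-azacytidine had a Pearson r of 0.92, and across genes of matching brightness r was 0.74. The points are genes of the same 4 arrays and are not independent, so this is a description. The comparisons with vehicle and with 5-azacytidine have no array in common, but each holds 1 array of either cell type.

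Few members differed past 1.5-fold between 5-azacytidine and vehicle. In MG cells 1 of 38 was lower (ANKRD37), 2 were higher (PDK1 and CA9, the latter not well above background on either array), and the median log2 ratio of 5-azacytidine over vehicle was -0.05. Over all genes 6.37% were lower and 7.62% higher past 1.5-fold, and over genes of matching brightness 2.03% and 2.75%, so the share of members was near the background. In non-MG cells 2 of 38 were lower (DDIT4 and ADM) and 0 higher, with a median of -0.20, against 4.58% lower and 6.01% higher of all genes and 1.57% and 1.61% of those of matching brightness. Below 0 were 29 of 38 members in non-MG cells, against 56.1% of all genes, and 26 in MG cells, against 53.3% of all genes. The count in non-MG cells lay between 26 and 36 under the scalings tried. These comparisons share arrays with those of cell type: the non-MG vehicle array is the divisor in both the cell type ratio with vehicle and the 5-azacytidine ratio in non-MG cells, and 29 of 38 members had their highest level on it.

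ANKRD37 was 1.75-fold lower with 5-azacytidine in MG cells (-0.81 ± 0.08) and 1.31-fold lower in non-MG cells (-0.39 ± 0.07). DDIT4 was 1.56-fold lower in non-MG cells (-0.64 ± 0.02) and 1.17-fold lower in MG cells (-0.23 ± 0.02). ADM was 1.57-fold lower in non-MG cells (-0.66 ± 0.02) and 1.23-fold lower in MG cells (-0.29 ± 0.02). These members were lower with 5-azacytidine in both cell types. PDK1 was 1.61-fold higher with 5-azacytidine in MG cells (0.69 ± 0.10) and lay at -0.23 ± 0.09 in non-MG cells, and SLC2A1 was at 0.51 ± 0.07 in MG cells and 0.01 ± 0.07 in non-MG cells. Members near 0 turned sign with the scaling: in non-MG cells SLC2A1 and GAPDH were below 0 with median centring. Glycolytic enzymes were within 1.5-fold in all 13 cases in both cell types, from -0.32 to 0.17 in MG cells and from -0.43 to 0.03 in non-MG cells.

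**Figure D4:**
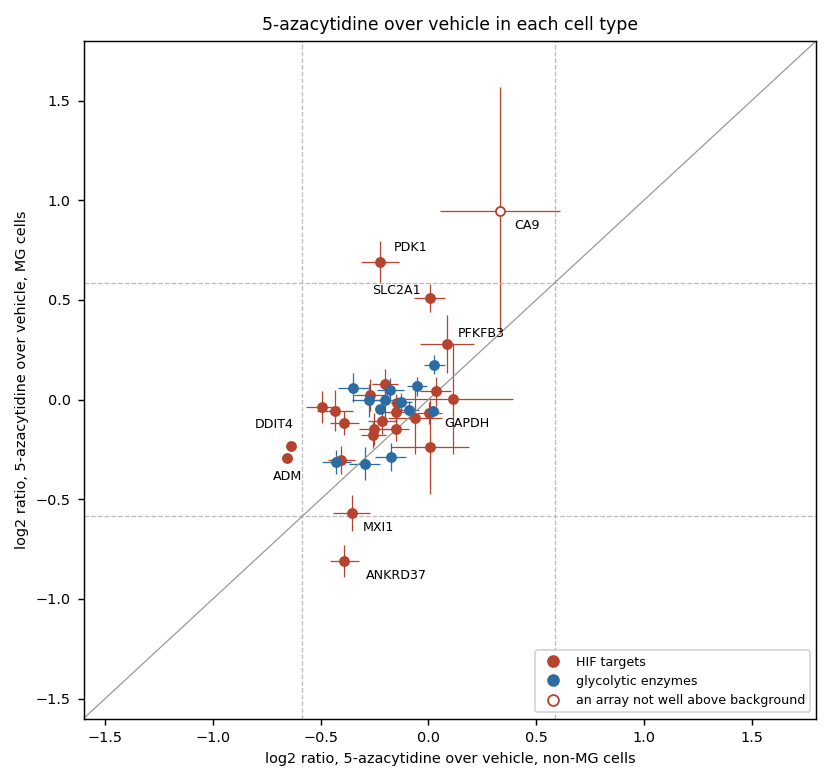
Log2 ratio of 5-azacytidine over vehicle in non-MG cells (x axis) and in MG cells (y axis) for the 38 members, with bars for the spot error; dashed lines mark 1.5-fold and the solid line equal ratios. Most members lie within 1.5-fold on both axes; PDK1, ANKRD37, DDIT4 and ADM lie past it on 1 axis, and the hollow point is CA9, not well above background in MG cells.

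The genes that encode HIF and its regulators did not share one direction. HIF1A, the alpha subunit of HIF-1, was averaged over 2 probes. It read 92.5 and 79.4 in non-MG cells with vehicle and 5-azacytidine, and 129 and 131 in MG cells. Its log2 ratios were 0.29 ± 0.12 and 0.37 ± 0.12. In non-MG cells with vehicle the probe spotted 10 times read 321 and the other probe 26.6. The brighter probe gave 0.225 ± 0.03 and 0.389 ± 0.03, and the dimmer 0.363 ± 0.236 and 0.347 ± 0.236. EPAS1, the alpha subunit of HIF-2, read 3075 and 2047 in non-MG cells and 2218 and 2009 in MG cells, with log2 ratios of -0.65 ± 0.07 and -0.39 ± 0.07. ARNT, the shared partner, read 46.3 and 32.5 in non-MG cells and 33.9 and 29.5 in MG cells, with log2 ratios of -0.63 ± 0.18 and -0.50 ± 0.24. HIF1A mRNA was thus the higher in MG cells, and EPAS1 and ARNT the lower. HIF1A, EPAS1 and ARNT kept these directions under each scaling tried. Of the 12 measured subunits and regulators other than HIF3A, 2 were lower (EPAS1 and ARNT) and 1 higher (ELOB) past 1.5-fold with vehicle, and 0 with 5-azacytidine. Of all genes 12.6% were lower and 8.24% higher with vehicle, and 12.3% and 8.6% with 5-azacytidine. Over genes of matching brightness these shares were 7.82% and 5.74%, and 6.85% and 5.79%. EPAS1, ARNT and ELOB passed the threshold by no more than their spot error.

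Of the degradation machinery, VHL was at -0.06 ± 0.07 and -0.08 ± 0.07. ELOB and ELOC, its elongin partners, were at 0.59 ± 0.10 and 0.55 ± 0.10, and at 0.31 ± 0.07 and 0.41 ± 0.07. The scaffold CUL2 was at 0.00 ± 0.18 and 0.28 ± 0.16, and RBX1 at 0.11 ± 0.06 and -0.02 ± 0.07. HIF1AN, the asparagine hydroxylase that inhibits HIF, was at 0.56 ± 0.16 with vehicle and -0.20 ± 0.12 with 5-azacytidine. CITED2, a HIF-induced competitor for its coactivator, was at -0.53 ± 0.15 and -0.33 ± 0.15. ARNT2 was at 0.22 ± 0.12 and -0.12 ± 0.12, and HIF3A was well above background only in MG cells with 5-azacytidine. The signs of VHL, CUL2, RBX1, ARNT2, HIF1AN and EGLN2 turned with treatment or with at least 1 other scaling. These are mRNA levels, and HIF activity is known to be set largely by protein stability.

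Of 34 other HIF targets listed, 26 were measured. With vehicle 7 were lower and 2 higher past 1.5-fold, with a median log2 ratio of -0.46, and with 5-azacytidine 4 were lower and 3 higher, with a median of -0.34. Of all genes 12.6% were lower and 8.24% higher past 1.5-fold with vehicle, and 12.3% and 8.6% with 5-azacytidine. Over genes of matching brightness the shares were 7.82% and 5.74%, and 6.85% and 5.79%. The counts with 5-azacytidine were close to the shares of all genes and above those of genes of matching brightness. With vehicle the count of lower genes was above both shares. This list was also drawn up with results known, so nothing is read from these counts. Below 0 were 20 of the 26 with vehicle and 18 with 5-azacytidine. HILPDA, a lipid droplet protein, read 3045 and 2250 in non-MG cells with vehicle and 5-azacytidine, and 1491 and 1501 in MG cells (-1.21 ± 0.07 and -0.94 ± 0.07). SPAG4, a nuclear envelope protein, read 96.6 and 70.7 in non-MG cells and 34.7 and 37.7 in MG cells (-1.66 ± 0.16 and -1.27 ± 0.16). KLHL24, a ubiquitin ligase adaptor, read 196 and 124 in non-MG cells and 137 and 88.1 in MG cells (-0.70 ± 0.10 and -0.86 ± 0.12). TFRC and IGFBP3 went the other way with both treatments. TFRC, the transferrin receptor, read 1364 and 1545 in non-MG cells and 3364 and 4211 in MG cells (1.12 ± 0.02 and 1.09 ± 0.02). IGFBP3, which binds insulin-like growth factors, read 21.5 and 32.8 in non-MG cells and 38.2 and 71.8 in MG cells (0.65 ± 0.08 and 0.77 ± 0.05).

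**Figure D5:**
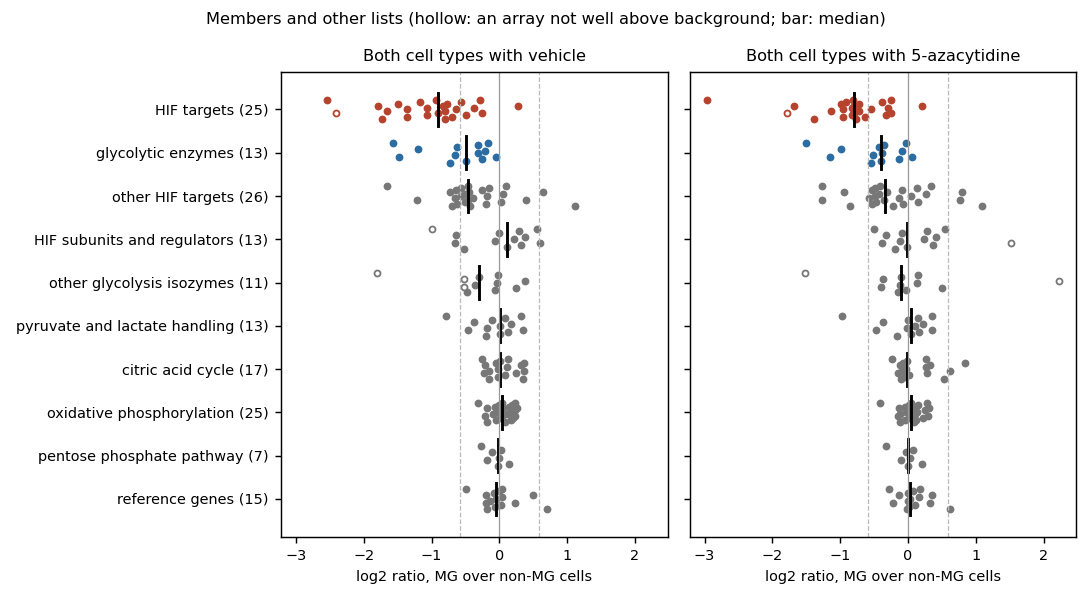
MG/non-MG log2 ratios for the members (red and blue) and 8 other lists (grey), with vehicle (left) and 5-azacytidine (right); each point is 1 measured gene, the bar is the list's median, numbers in parentheses are measured genes, and dashed lines mark 1.5-fold. The HIF targets have a median of -0.90 and -0.79 and the glycolytic enzymes of -0.50 and -0.39, whereas the lists of mitochondrial metabolism have medians between -0.01 and 0.04.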

How the data were processed

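The authors deposited Agilent Feature Extraction 11.5.1.1 output per array: the background-subtracted intensity of each spot, its median intensity and flags for outliers and signal well above background, the latter coded per the file headers as other values. A further deposited table has log2 values of 24189 probes, each centred on its median, whose normalization is not given in the sources used here. The labels give 400 ng RNA and name RNAiso Plus, the methods an RNeasy kit.

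From the intensity, outlier spots and control spots were left out (5 of 50599 probes lost), spots averaged per probe, and log2 values taken minus the array's 75th percentile. A probe was dropped if at least 2 arrays had it under their 20th percentile or if 0 arrays had it well above background, and 23860 remained. Probes were named through their accession in RefSeq (GRCh38.p14; 79.4% named), since the design of the array refers to hg19. Ratios of a gene's probes were averaged, and genes past 1.5-fold counted. Spot error came from probes with 10 spots. The counting was tested on simulated data. Members and lists were chosen with earlier results of these data known. Values on all arrays were printed for ANKRD37, GAPDH and members past 1.5-fold in any comparison, and genes of other lists were named if past 1.5-fold in the same direction with both treatments and well above background throughout, or if HIF subunits or regulators. PDK2, PDK3, LDHB, PFKL, PFKM, POLR2A and SLC16A3 were added after their values were seen, and COL1A1 as a marker of other cells. Alternatives were normexp with offset 50 on the median intensity, quantile normalization, centring on the median or on reference genes, other filters, the brightest probe, the authors' log2 table and a 2-fold threshold. Tools were Python 3.11.15, numpy 2.4.6, pandas 2.3.3, matplotlib 3.10.9, R 4.3.3 and limma 3.58.1.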

Additional observations from a re-analysis of the deposited data

Results flagged for a closer look

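PDK1 was the only member well above background on all 4 arrays whose response to 5-azacytidine had opposite signs in the cell types and differed by more than 1.5-fold. Its log2 ratio of 5-azacytidine over vehicle was 0.69 ± 0.10 in MG cells and -0.23 ± 0.09 in non-MG cells, a difference of 0.92 ± 0.14 (spot error). The value rests on 1 probe and 1 array per condition, and the difference was not tested.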

How the results depend on the processing

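No member's ratio that was past 1.5-fold in MG over non-MG cells crossed 0 under any scaling, filter or probe rule tried, and 19 to 25 of the 25 with vehicle and 12 to 21 of the 21 with 5-azacytidine stayed past the threshold. With vehicle the count of lower members became 14 at 2-fold, and the median of -0.79 became -0.59 with normexp, -0.59 with median centring and -0.98 with centring on the reference genes. With 5-azacytidine the count of 21 became 12 with median centring, 33 with centring on the reference genes and 7 at 2-fold, and the median of -0.72 became -0.45 with normexp, -0.46 with median centring and -1.07 with centring on the reference genes. For 5-azacytidine over vehicle in MG cells, 1 lower became 2 with median centring, 2 with centring on the reference genes and 0 at 2-fold, and 2 higher became 1 with normexp, 1 with only the probes detected on each array, 1 at the detection limit and 0 at 2-fold. In non-MG cells, 2 lower became 1 with quantile normalization, 0 with centring on the reference genes and 0 at 2-fold, and the median of -0.20 became -0.30 with median centring and -0.08 with centring on the reference genes. Median centring moved the median of all genes by 0.20 with vehicle and 0.26 with 5-azacytidine, and centring on the reference genes by -0.20 and -0.35. Relative to the median of all genes, which a centring cannot change, the members' median was -0.76 with vehicle and -0.71 with 5-azacytidine, and it became -0.57 and -0.43 with normexp and -0.76 and -0.76 with quantile normalization. Median centring turned the sign of TPI1 and PGAM1 with vehicle and of P4HA2, GBE1, PFKP, TPI1 and PKM with 5-azacytidine, normexp that of PGAM1, and of PFKP and PKM, and centring on the reference genes that of AK4 and PGAM1 with 5-azacytidine. The share of higher among all genes past 1.5-fold was 39.5% and 41.2%, and became 67.3% and 76.9% with median centring, 58.9% and 78.7% with normexp and 18.4% and 10.5% with centring on the reference genes. Centring on the deviations of the reference genes from their own means, chosen after seeing the data, gave medians of -0.78 and -0.75. The cause of these shifts was not tested. Leaving out replicates and a slide block could not be run, since there is 1 array per condition and 1 slide. No paired analysis was possible because the groups share only 1 number. Dim probes limit CA9, SLC2A3 and EGLN3: the median SD between spots was 0.32 at log2 intensities of 3 to 4, which hold the detection limit, 0.20 at 4 to 5 and 0.13 at 5 to 6, and about 0.05 for bright probes.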

Other observations

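Genes of mitochondrial energy metabolism were close to equal between MG and non-MG cells. Of 25 measured genes of oxidative phosphorylation, 0 were past 1.5-fold with either treatment, with median log2 ratios of 0.04 with vehicle and 0.04 with 5-azacytidine. Of 17 genes of the citric acid cycle, 0 were past 1.5-fold with vehicle and 2 were higher with 5-azacytidine, with medians of 0.01 and -0.01. Of 7 genes of the pentose phosphate pathway, which branches from glycolysis, 0 were past 1.5-fold, with medians of -0.02 and 0.01. Of 13 genes for the handling of pyruvate and lactate, 1 was lower past 1.5-fold with each treatment (PDK4), and the lactate exporter SLC16A3 was at -0.10 ± 0.07 and -0.16 ± 0.07. Past 1.5-fold with vehicle, 12.6% of all genes were lower and 8.24% higher, and 7.82% and 5.74% of genes of matching brightness. With 5-azacytidine these shares were 12.3% and 8.6%, and 6.85% and 5.79%. With 1 array per condition, and with members and lists chosen with results known, the counts of these lists are a description.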
